A study of Mus musculus with 6 samples.

Results

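The smooth muscle contractile genes examined here were Acta2, Actg2, Myh11, Myl9, Tpm2, Cnn1, Tagln, Lmod1, Smtn and Des, and all 10 were found by symbol among the 46078 genes of each table. RNA from whole mouse ovary was sequenced in 3 libraries of cyclophosphamide-treated C57BL/6 mice (CTX) and 3 libraries of control C57BL/6 mice, all aged 8 to 9 weeks. Cyclophosphamide alkylates DNA and, as a cancer drug, is known to harm ovarian follicles. The sources used here give neither its dose, route and timing, nor the cycle stage, nor what the controls received. Whether each library is a separate animal is not labelled, and p-values therefore cover only the spread among these libraries, which may be technical.

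Smooth muscle cells contract when calcium and calmodulin activate myosin light chain kinase, which phosphorylates the regulatory light chain and lets smooth muscle myosin pull on actin filaments. In the ovary such cells form the walls of arteries and arterioles and part of the theca externa, the outer sheath of the follicle, and they are present in the ligaments that hold the organ. Most genes of the contractile apparatus are switched on by serum response factor (SRF) with its partner myocardin, which act through a DNA element named the CArG box.

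Promoter windows of 300 bases around the RefSeq start (GRCm38.p6, 250 bases before it and 50 after) were at hand for 7 of the members, namely Acta2, Cnn1, Des, Myl9, Lmod1, Smtn and Tpm2. They were searched on both strands, which for this palindromic element is a single search, for the CArG box with at most 1 G or C in its A/T core. Acta2 and Myl9 held matches, in capitals below, and their windows are printed because SRF is the regulator described with the members. A match is a run of letters and does not show that the factor binds there. Among all 32851 windows, 9.98% held such a match and 1.63% held the element with an intact core. The Acta2 window lies on the minus strand at chr19:34255324-34255623 and its matches begin 84 and 34 bases before the start.
Acta2: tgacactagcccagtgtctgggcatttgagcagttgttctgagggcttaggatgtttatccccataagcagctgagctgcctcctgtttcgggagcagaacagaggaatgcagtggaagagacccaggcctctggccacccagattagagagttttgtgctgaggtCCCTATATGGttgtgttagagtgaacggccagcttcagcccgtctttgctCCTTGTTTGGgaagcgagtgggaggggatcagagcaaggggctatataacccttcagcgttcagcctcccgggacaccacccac
The Myl9 window lies on the plus strand at chr2:156775214-156775513 and its matches begin 161 and 99 bases before the start, the farther one with an intact core.
Myl9: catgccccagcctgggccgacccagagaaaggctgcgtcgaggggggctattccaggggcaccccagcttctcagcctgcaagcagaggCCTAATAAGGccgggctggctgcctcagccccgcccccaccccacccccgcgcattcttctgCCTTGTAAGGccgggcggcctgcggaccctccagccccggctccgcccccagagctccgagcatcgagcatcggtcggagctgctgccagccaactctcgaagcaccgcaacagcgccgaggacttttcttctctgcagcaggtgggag

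The values are RPKM, reads per kilobase of gene and per library depth, and they rest on an estimated depth of 17050000 to 22150000 reads in CTX libraries and 15800000 to 16800000 in control libraries. With the exonic lengths of the members this stands for about 222 reads (Des in control 1) to about 22031 reads (Acta2 in CTX 2). The libraries did not divide by treatment first. Luteal marker genes, which are high in the corpus luteum but need not be limited to it, were summed. Their sums were 9452, 3072 and 2945 RPKM in CTX 1, 2 and 3, against 7469, 8093 and 4057 in controls 1, 2 and 3. Most of each sum was Hsd3b1 and Cyp11a1. Granulosa cell markers ran the other way, with 651, 2326 and 2245 RPKM in CTX 1, 2 and 3, against 1046, 925 and 2502 in controls 1, 2 and 3. Oocyte markers summed to 90.5, 338 and 333 RPKM in CTX 1, 2 and 3, against 146, 124 and 296 in controls 1, 2 and 3, so markers of the labelled tissue were present in every library. CTX 1 stood with controls 1 and 2, and control 3 with CTX 2 and 3, and results for the members are given by library for that reason. In whole ovaries more cells of a type and more RNA per cell cannot be told apart.

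All 10 members had a higher mean in CTX than in control, by 1.10-fold (Smtn) to 1.88-fold (Cnn1), and none passed the test. The question was whether cyclophosphamide treatment was accompanied by another level of the contractile genes. In limma on log2(RPKM + 1), 0 of 14535 tested genes (0.0%) were called higher and 0 (0.0%) lower at a Benjamini-Hochberg adjusted p under 0.05, and the adjusted p of every member was 1.00. Before adjustment 501 genes had a p under 0.05, of which 168 were higher in CTX (1.16% of those tested) and 333 lower (2.29%). Among the members, Tpm2, Cnn1, Myl9 and Actg2 (4 of 10) were below 0.05 before adjustment, all as higher in CTX. The log2 fold change was positive in all 10 members and in 48.8% of tested genes. The median log2 fold change over the members, CTX minus control, was 0.57, against −0.01 over all tested genes, whose quartiles were −0.13 and 0.12. The members were chosen with earlier results of these data known, so this median is a description.

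**Figure D1:**
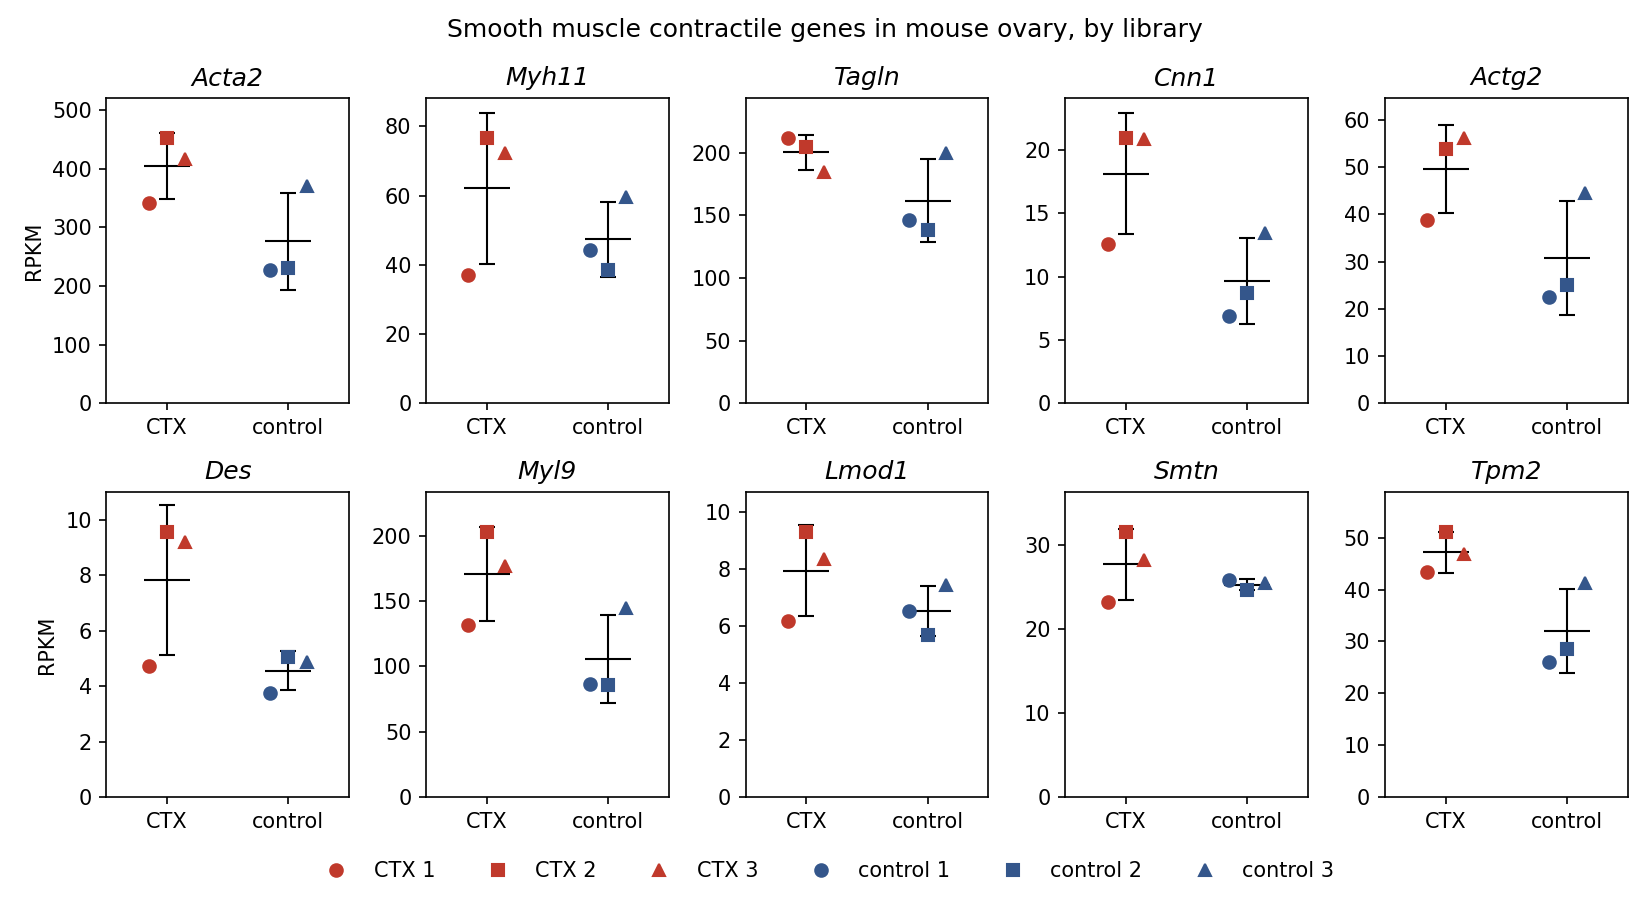
RPKM of each member by library, CTX left and control right, with points for libraries and black lines for the mean ± SD (n = 3 each). Tpm2 is the member with all CTX points above all control points, and in 9 members CTX 2 and CTX 3 lie above every control.

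The smooth muscle actins include the most abundant member. Acta2 (chr19:34241090-34255590, minus strand), which encodes smooth muscle alpha-actin, had 342, 453 and 417 RPKM in CTX 1, 2 and 3, against 227, 230.2 and 371 in controls 1, 2 and 3. CTX 2 and 3 were above every control, while CTX 1 lay between control 3 and the other controls, so the groups overlapped. The means were 404 ± 56.4 RPKM in CTX and 276 ± 82.4 in control (SD, n = 3 each, here and below), and the fitted log2 fold change was 0.58 ± 0.24 (SE, here and below). Actg2 (chr6:83512905-83536265, minus strand) encodes the gamma-actin of enteric smooth muscle, and had 38.9, 53.8 and 56.2 RPKM in CTX 1, 2 and 3, against 22.4, 25.1 and 44.5 in controls 1, 2 and 3. Actg2 ranked the libraries as Acta2 did, with CTX 1 again below control 3, except that CTX 3 and not CTX 2 was the highest. Its log2 fold change was 0.72 ± 0.28. Acta2 was 8.22 ± 0.718 times as high as Actg2 in CTX and 9.22 ± 0.894 times in control, on the scale of RPKM, and the ratios overlapped between the groups.

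Reads of the actin family could in principle be assigned to the wrong gene. Of the 50-base stretches in Acta2 transcripts 0.326% occurred in a transcript of another gene, among them the cytoplasmic actin gene Actg1, and 0 of those in Actg2 transcripts did. The read length is unknown from the sources used here.

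Of the myosin subunits, the light chain gene had the larger fitted difference, and the difference between the pair was not tested. Myl9 (chr2:156775420-156781658, plus strand), encoding the regulatory light chain, had 132, 203 and 177 RPKM in CTX 1, 2 and 3, against 86.3, 85.8 and 145 in controls 1, 2 and 3. CTX 2 and 3 were above all controls and CTX 1 was below control 3. The log2 fold change was 0.71 ± 0.27, with an unadjusted p of 0.0347 in limma. Myh11 (chr16:14194535-14291372, minus strand), the smooth muscle myosin heavy chain and the gene most closely tied to differentiated smooth muscle, had 37.1, 76.7 and 72.4 RPKM in CTX 1, 2 and 3, against 44.1, 38.6 and 59.5 in controls 1, 2 and 3. CTX 1 was the lowest of the 6 libraries while CTX 2 and 3 were the highest. Its log2 fold change of 0.34 ± 0.31 was close to its error. The ratio of Myl9 to Myh11 was 3.56 in CTX 1 and 1.95 to 2.65 in the other 5 libraries, and that of Acta2 to Myh11 was 9.23 in CTX 1 and 5.15 to 6.24 in the others.

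Among the genes that regulate the thin filament, Tpm2 and Cnn1 had the smallest unadjusted p of the members. Tpm2 (chr4:43514711-43523765, minus strand), encoding beta-tropomyosin, which lies along the actin filament, had 43.4, 51.2 and 46.9 RPKM in CTX 1, 2 and 3, against 26.1, 28.6 and 41.2 in controls 1, 2 and 3. It was the 1 member in which all CTX libraries lay above all controls, an order found in 3.32% of tested genes. The means were 47.2 ± 3.90 RPKM in CTX and 31.96 ± 8.11 in control, with a log2 fold change of 0.57 ± 0.19 and an unadjusted p of 0.0212 in limma. Cnn1 (chr9:22099216-22109630, plus strand) encodes calponin, which binds actin and slows the myosin ATPase, and had 12.6, 20.98 and 20.9 RPKM in CTX 1, 2 and 3, against 6.87, 8.70 and 13.4 in controls 1, 2 and 3. CTX 1 fell short of control 3 by under 1 RPKM and exceeded the other controls. Its means were 18.2 ± 4.82 RPKM in CTX and 9.67 ± 3.39 in control. The log2 fold change, 0.86 ± 0.29, was the largest among the members, with an unadjusted p of 0.0234 in limma.

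Tagln and Lmod1 had smaller fitted differences. Tagln (chr9:45929619-45936058, minus strand), encoding transgelin, an actin-binding protein and early marker of the smooth muscle lineage, had 212, 204 and 185 RPKM in CTX 1, 2 and 3, against 147, 139 and 199.7 in controls 1, 2 and 3. It was the 1 member whose highest library was CTX 1 and the 1 in which CTX 3 lay below control 3. The log2 fold change was 0.33 ± 0.18. The noncoding antisense gene Gm48529 shares 62.4% of the exonic bases of Tagln on the opposite strand, and strand use in the counting is not given, so reads of the pair cannot be told apart. Lmod1 (chr1:135324807-135368065, plus strand), encoding leiomodin, which starts new actin filaments in smooth muscle, had 6.20, 9.33 and 8.35 RPKM in CTX 1, 2 and 3, against 6.52, 5.68 and 7.44 in controls 1, 2 and 3. CTX 1 lay within the controls, and the log2 fold change was 0.24 ± 0.18.

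Smtn and Des encode proteins that join the contractile filaments to the cytoskeleton. Smtn (chr11:3517523-3540612, minus strand) encodes smoothelin, an actin-binding protein of contractile smooth muscle cells, and had 23.2, 31.6 and 28.2 RPKM in CTX 1, 2 and 3, against 25.8, 24.6 and 25.4 in controls 1, 2 and 3. The controls were within 1.2 RPKM of each other, and CTX libraries lay on either side of them. Its log2 fold change of 0.12 ± 0.13 was the smallest among the members. The noncoding antisense gene Gm11946, at no more than 0.41 RPKM, shares 16.3% of its exonic bases. Des (chr1:75360329-75368579, plus strand), encoding the muscle intermediate filament desmin, had 4.73, 9.58 and 9.22 RPKM in CTX 1, 2 and 3, against 3.75, 5.05 and 4.87 in controls 1, 2 and 3. CTX 2 and 3 were well above all controls and CTX 1 was within them, and control 3 did not stand above the other controls as it did for the actins. The log2 fold change was 0.63 ± 0.26.

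**Figure D2:**
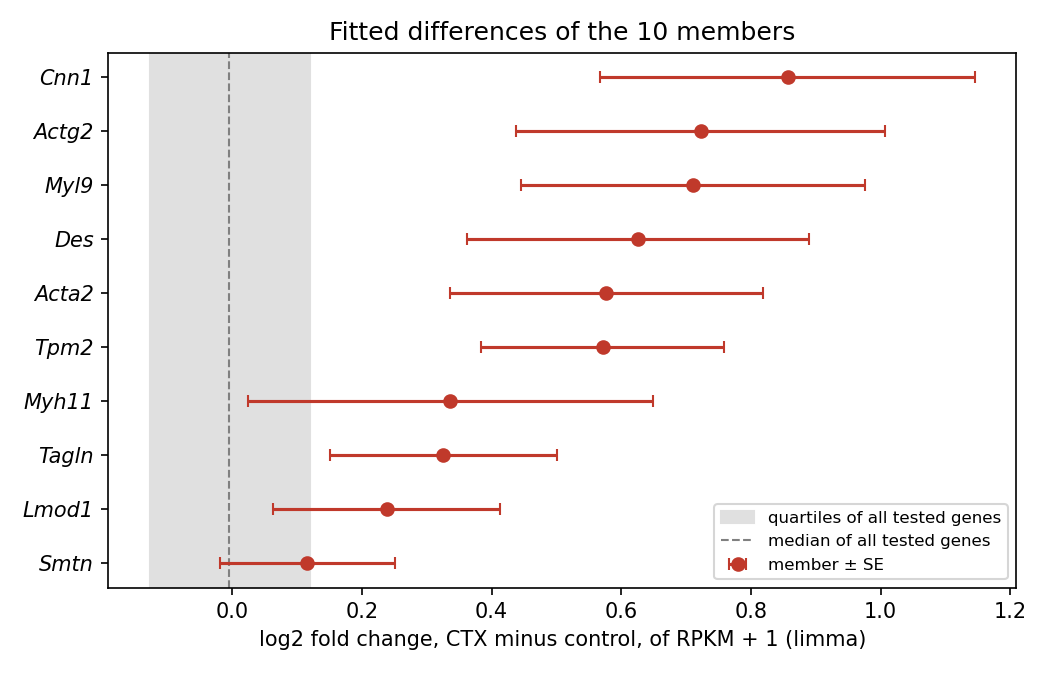
Fitted log2 fold change of RPKM + 1, CTX minus control, for each member with its SE (limma, n = 3 each), over the quartiles (grey band) and median (dashed line) of all tested genes. The estimates run from 0.12 for Smtn to 0.86 for Cnn1, and no member passed after adjustment.

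The order of levels per length was nearly the same in all libraries. Acta2 had the highest RPKM, then Tagln, then Myl9, in 6 of 6 libraries, although Tagln and Myl9 were within 1.2 RPKM of each other in CTX 2. Myh11 followed with a mean of 54.8 RPKM over the 6 libraries, but lay below Actg2 and Tpm2 in CTX 1. Actg2 (40.2 RPKM) and Tpm2 (39.6 RPKM) changed places between libraries. Smtn (26.5 RPKM) and Cnn1 (13.9 RPKM) came next, and Lmod1 (7.25 RPKM) and Des (6.20 RPKM) overlapped. Summed over the 10 members, the level was 853, 1114 and 1022 RPKM in CTX 1, 2 and 3, against 596, 591 and 912 in controls 1, 2 and 3. Acta2 made up 40.6 ± 0.352% of that sum in CTX and 39.3 ± 1.31% in control. Smtn took 2.77 ± 0.0558% in CTX and 3.76 ± 0.845% in control, where controls 1 and 2 were higher (4.33 and 4.16%) than control 3 (2.79%).

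The differences were not alike in every CTX library. CTX 2 and CTX 3 lay above all controls in 9 of the 10 members, an order held by 22.8% of tested genes, and CTX 2 was the highest library in 8 members. Control 3 lay above controls 1 and 2 in 8 members, as it did in 51.9% of tested genes. CTX 1 lay above controls 1 and 2 in 6 members, below control 3 in 8, and was the lowest library in Myh11 and Smtn.

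The place of CTX 1 differed between short and long members. The members with at most 3500 exonic bases (Myl9, Actg2, Tagln, Acta2, Cnn1 and Tpm2) were 0.35 to 0.46 higher in CTX 1 than the control mean on the log2(RPKM + 1) scale. The 4 longer members gave 0.05 (Des, 3754 bases), −0.06 (Lmod1, 3948 bases), −0.12 (Smtn, 4380 bases) and −0.32 (Myh11, 7599 bases). Over all tested genes the median difference of CTX 1 from the control mean was 0.11 up to 2000 exonic bases, 0.03 from there to 3500 bases and −0.20 above. In CTX 2 and CTX 3 these medians lay between 0.00 and 0.06, and every member was above the control mean at every length. The part of this difference by length in the values of the members was not tested.

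**Figure D3:**
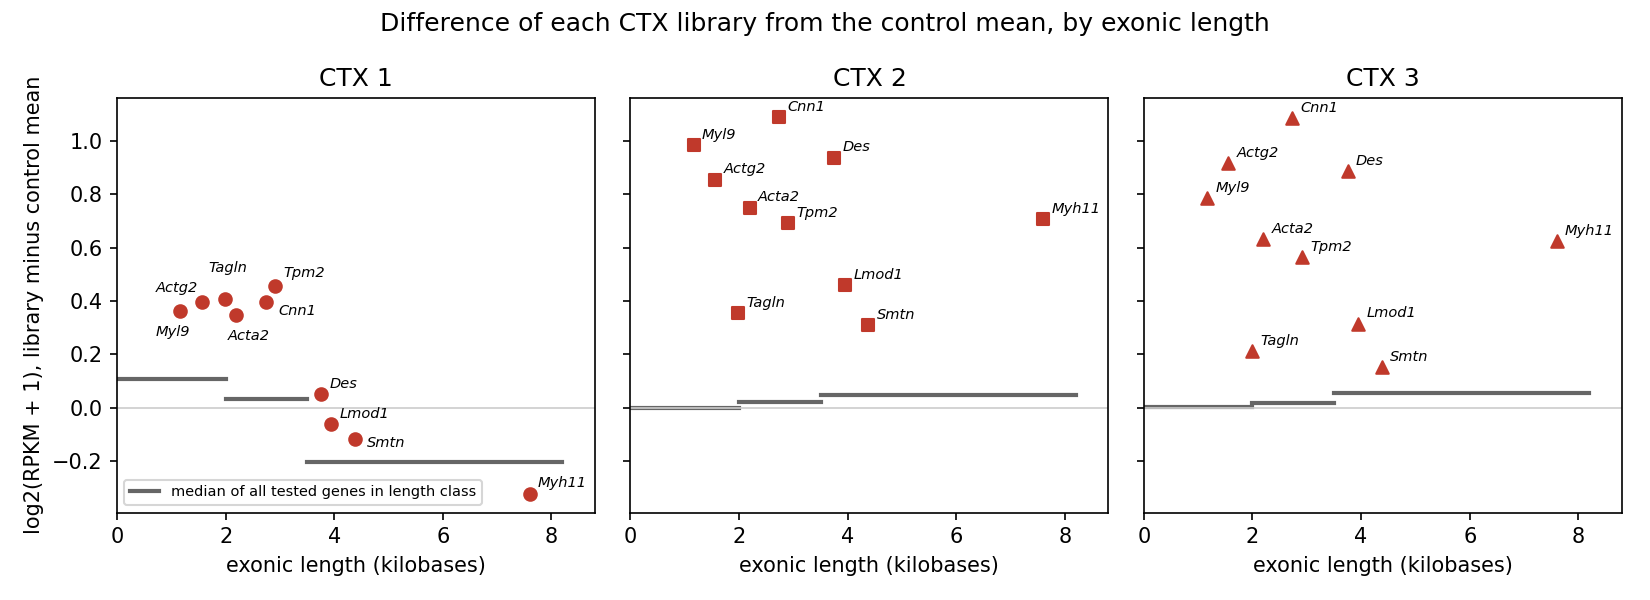
Difference of each CTX library from the mean of the controls on the log2(RPKM + 1) scale against exonic length in kilobases, with a point per member and grey lines for the median of all tested genes in 3 length classes. In CTX 1 the 6 shorter members lie between 0.35 and 0.46 and Myh11, the longest, at −0.32, while in CTX 2 and 3 all members lie above 0.

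Array weights moved the log2 fold change of 8 members, all but Tagln and Tpm2, by more than 1.5 times, and a luteal covariate that of Myh11, Lmod1 and Smtn. With array weights, which gave CTX 1 a weight of 0.0806 and control 3 one of 0.254, all 10 members were called higher, with 0.21 (Smtn) to 1.40 (Cnn1) on the log2 scale and limma adjusted p-values of 0.00167 to 0.0292, but so were 4062 of all tested genes, with 2747 called lower. With the mean level of the luteal markers as a covariate, the log2 fold change was 0.06 ± 0.11 for Myh11, 0.11 ± 0.10 for Lmod1 and 0.05 ± 0.10 for Smtn, and no member passed, with a smallest limma adjusted p of 0.167 (Cnn1, 0.61 ± 0.12).

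Marker genes of other cell types moved with some of the same libraries. Theca markers (Cyp17a1, Insl3, Ptch1, Gli1 and Hhip) had 5 of 5 tested genes with positive log2 fold changes and sums of 62.1, 309 and 292.5 RPKM in CTX 1, 2 and 3, against 57.2, 40.1 and 128.5 in controls 1, 2 and 3. Adipocyte markers had 5 of 5 positive, with sums of 6.78 to 202 RPKM in CTX and 5.83 to 146 in control. Their defining marker Adipoq was at 0.08, 17.3 and 15.5 RPKM in CTX 1, 2 and 3, against 0.27, 0 and 13.3 in controls 1, 2 and 3. Fibroblast markers had 6 of 8 positive, with sums of 374 to 671 RPKM in CTX and 397 to 727 in control. In these sums, as in that of the contractile genes, CTX 2 and 3 and control 3 were above controls 1 and 2. In the marker sums CTX 1 instead lay with the low libraries. Single theca markers differed from their sum, most of which was Cyp17a1 in CTX 2 and 3. Insl3 had 16.9, 18.0 and 17.8 RPKM in CTX 1, 2 and 3, against 9.27, 7.38 and 13.2 in controls 1, 2 and 3. All CTX libraries were thus above all controls for Insl3, an order found in 3.32% of tested genes. Gli1 and Hhip were highest in control 3. The part of these cell types in the result was not tested.

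Pericytes, the contractile cells on capillaries, share Acta2 and Myh11 with smooth muscle in part, but their markers had another profile. Of 9 tested pericyte markers 0 had a positive log2 fold change, and their sum was 162, 102 and 95.5 RPKM in CTX 1, 2 and 3, against 152, 161 and 116 in controls 1, 2 and 3. This sum was higher in CTX 1 and controls 1 and 2 than in the other libraries, as was the luteal sum. The part of luteal content in it was not tested. Rgs5, a marker of pericytes, had 41.6, 19.7 and 21.2 RPKM in CTX 1, 2 and 3, against 44.9, 44.6 and 31.0 in controls 1, 2 and 3. Endothelial markers had 1 of 8 positive, with sums of 115 to 158 RPKM in CTX and 143 to 159 in control.

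Markers of striated muscle, which also uses desmin, were at 3.74 RPKM (Mylpf in CTX 1) or less in every library. Of 15 listed genes 3 passed the filter on low values, the sums were 5.55 to 10.3 RPKM in CTX and 7.07 to 9.48 in control, and Myh4 was listed at 0 in all libraries. The skeletal actin gene Acta1 had 0, 0.06 and 0.08 RPKM in CTX 1, 2 and 3, against 0.13, 0 and 0.17 in controls 1, 2 and 3. For Tnnt2 and Actc1, at most 0.88 and 0.58 RPKM, all CTX libraries were above all controls. The groups overlapped in the other listed genes. The oviduct, whose wall is rich in smooth muscle, borders the ovary. Of its 6 epithelial markers 2 passed the filter, both with positive log2 fold changes, and the sums were 4.92, 16.7 and 17.5 RPKM in CTX 1, 2 and 3, against 6.37, 5.56 and 11.3 in controls 1, 2 and 3. Most of that sum was Tppp3, and the defining markers Foxj1 and Pax8 were at most 0.21 and 0.14 RPKM in any library. The part of oviduct tissue in the result was not tested. Mesothelial markers had 0 of 6 positive, with 26.1 to 39.0 RPKM in CTX and 42.7 to 54.8 in control.

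**Figure D4:**
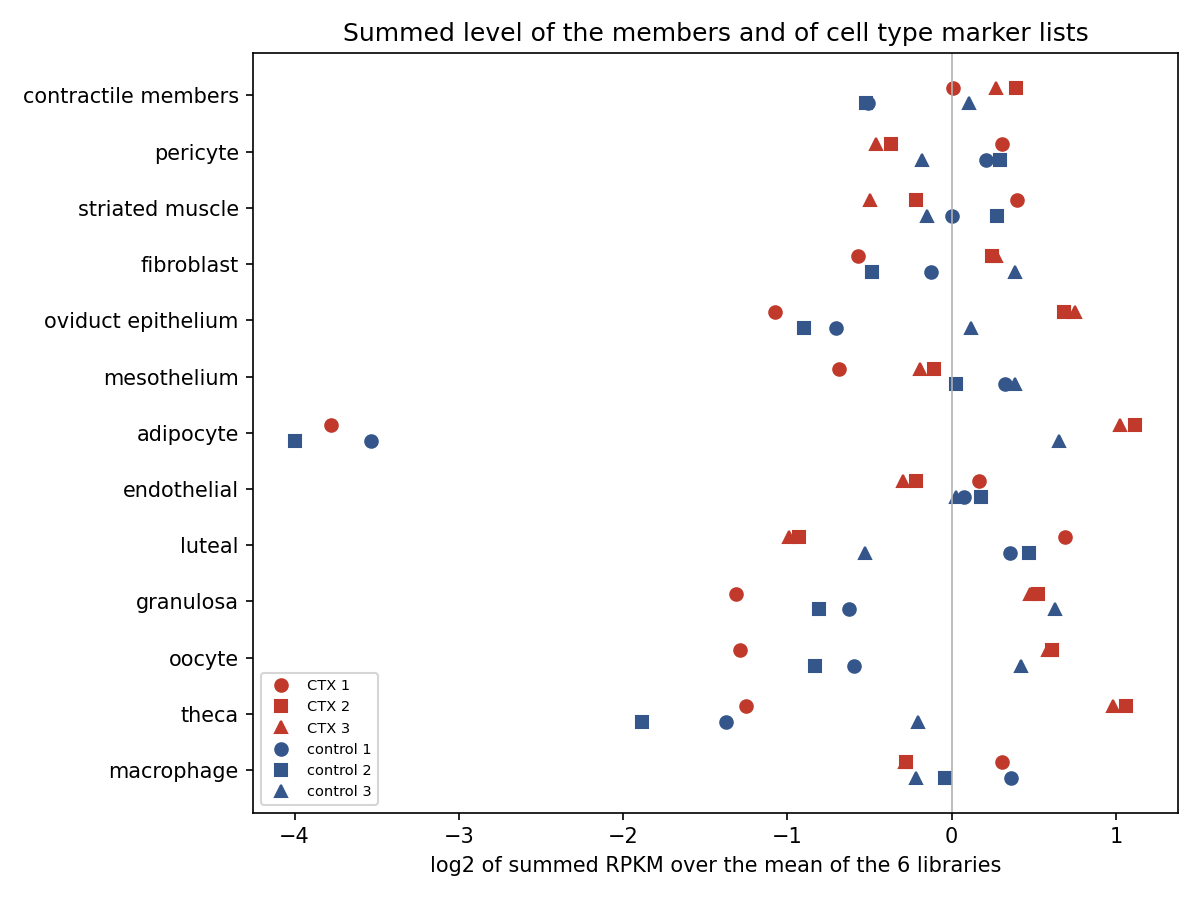
Summed RPKM of the 10 members and of each cell type marker list in every library, as the log2 ratio to the mean of the 6 libraries, with CTX in red above control in blue. The members spread less than the theca, adipocyte, granulosa and oocyte markers, and the pericyte sum runs the other way in CTX 2 and 3.

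The wider lists of contraction genes, which also hold receptors and nonmuscle counterparts, had log2 fold changes on both sides of 0. They ran from −0.74 (Ptgfr) to 1.03 (Pdlim3). Of the 77 listed genes outside the members that were found in the tables, 65 were tested. A positive log2 fold change was found in 37 of these 65, with a median of 0.06, and in 48.8% of all tested genes. Limma called 0 of the 65 in either direction, with 5 at an unadjusted p under 0.05, of which 2 were higher and 3 lower in CTX. All CTX libraries lay above all controls in 4, and below them in 6, where 3.32% and 5.5% of tested genes did so.

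Genes of the thin filament and of its ties to the membrane and the cytoskeleton had 14 of 19 tested members positive and a median log2 fold change of 0.17. Filamin A (Flna) had 94.5, 178 and 166 RPKM in CTX 1, 2 and 3, against 117, 111 and 127 in controls 1, 2 and 3, and the LIM protein gene Csrp1 had 125, 149.6 and 146 in CTX 1, 2 and 3, against 104.5, 91.0 and 144 in controls 1, 2 and 3. For Flna CTX 1 was the lowest library, as for Myh11. Pdlim3, which encodes a protein that binds alpha-actinin, had 3.46, 9.87 and 10.9 RPKM in CTX 1, 2 and 3, against 2.63, 2.87 and 3.77 in controls 1, 2 and 3 (log2 fold change 1.03 ± 0.38). CTX 2 and 3 again stood apart.

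Genes of the myosin light chains and of their phosphorylation had 5 of 10 tested members positive and a median of 0.00. The essential light chain gene Myl6 had 926, 675 and 659.5 RPKM in CTX 1, 2 and 3, against 685, 655 and 674 in controls 1, 2 and 3. Ppp1r14a, encoding the myosin phosphatase inhibitor CPI-17, had 117, 63.1 and 67.3 RPKM in CTX 1, 2 and 3, against 61.0, 71.8 and 49.4 in controls 1, 2 and 3. CTX 1 was the highest library in both. Rock2, encoding a kinase that inhibits myosin phosphatase, had 14.3, 14.04 and 14.9 RPKM in CTX 1, 2 and 3, against 19.96, 19.1 and 17.8 in controls 1, 2 and 3. All CTX libraries were below all controls, with a log2 fold change of −0.37 ± 0.10 and the smallest unadjusted p of the listed genes outside the members (0.00898 in limma, 1.00 after adjustment).

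Genes of calcium handling and the membrane had 3 of 10 tested members positive and a median of −0.14. Ptrf, a structural gene of caveolae, had 79.7, 109 and 113 RPKM in CTX 1, 2 and 3, against 85.2, 77.5 and 113 in controls 1, 2 and 3. The calcium pump gene Atp2a2 had 50.4, 67.4 and 66.0 RPKM in CTX 1, 2 and 3, against 56.3, 54.4 and 53.2 in controls 1, 2 and 3. Cacna1c, encoding the L-type calcium channel that admits calcium for contraction, had 1.87, 2.69 and 2.65 RPKM in CTX 1, 2 and 3, against 4.03, 3.26 and 4.72 in controls 1, 2 and 3. All CTX libraries were below all controls, with a log2 fold change of −0.56 ± 0.18 and an unadjusted p of 0.0181 in limma. The same order held for the cation channel gene Trpc6, with 2.58, 2.76 and 2.56 RPKM in CTX 1, 2 and 3, against 3.42, 3.31 and 5.13 in controls 1, 2 and 3 (log2 fold change −0.43 ± 0.17).

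Of the SRF regulators 4 of 9 tested were positive, with a median of −0.04. Srf itself had 16.9, 26.5 and 24.7 RPKM in CTX 1, 2 and 3, against 18.6, 17.2 and 21.3 in controls 1, 2 and 3. Gata6, encoding a zinc finger transcription factor, was the most abundant of this list and had 36.3, 24.3 and 21.8 RPKM in CTX 1, 2 and 3, against 31.8, 41.5 and 27.4 in controls 1, 2 and 3. Srf was highest in CTX 2 and 3, and Gata6 lowest there. Myocd encodes myocardin, and it was chosen with its values known. Its level was 1.03, 3.98 and 4.29 RPKM in CTX 1, 2 and 3, against 1.54, 1.20 and 2.90 in controls 1, 2 and 3 (log2 fold change 0.43 ± 0.42). CTX 2 and 3 were above all controls and CTX 1 was the lowest library, so the groups overlapped. Genes for ligands and receptors of contraction had 5 of 9 tested members positive and a median of 0.02. The prostaglandin F receptor gene Ptgfr had 102, 14.1 and 13.9 RPKM in CTX 1, 2 and 3, against 73.9, 107 and 12.3 in controls 1, 2 and 3, and the oxytocin receptor gene Oxtr had 83.2, 15.7 and 15.8 in CTX 1, 2 and 3, against 51.9, 73.6 and 26.0 in controls 1, 2 and 3. These receptors divided the libraries as the luteal markers did, and luteal cells are known to express Ptgfr strongly. The part of luteal content in the receptor values was not tested.

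The nonmuscle actins, myosins and tropomyosins had 6 of 8 tested members positive and a median of 0.11. The cytoplasmic beta-actin gene Actb had 608, 561 and 541 RPKM in CTX 1, 2 and 3, against 458, 497.5 and 499.8 in controls 1, 2 and 3. All CTX libraries were above all controls, with a log2 fold change of 0.23 ± 0.15. Actg1, the cytoplasmic gamma-actin gene, had 254, 179 and 195 RPKM in CTX 1, 2 and 3, against 169, 209 and 187 in controls 1, 2 and 3, and the groups overlapped. The nonmuscle light chain gene Myl12a had 135, 124 and 115 RPKM in CTX 1, 2 and 3, against 97.5, 98.8 and 106 in controls 1, 2 and 3 (log2 fold change 0.30 ± 0.12, unadjusted p 0.0393 in limma). CTX 1 was the highest library for all 3 genes, unlike for 9 of the 10 contractile members.

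**Figure D5:**
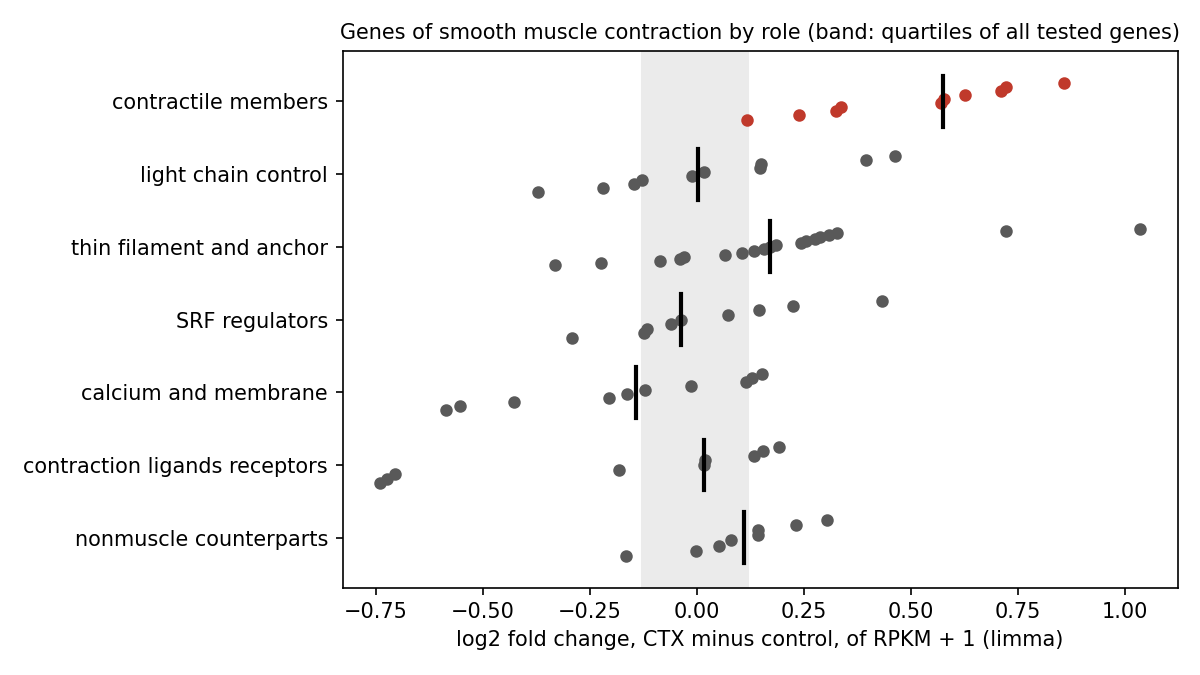
Log2 fold change of RPKM + 1, CTX minus control, for each tested gene of the members (red) and of 6 lists of contraction genes by role (grey points), with black bars for list medians and a band for the quartiles of all tested genes. The members' median is 0.57, and the other medians lie between −0.14 and 0.17.

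The protein-coding genes outside the members whose profile over the 6 libraries was most like that of the members were Dap, Prpf19, Mfap4, Ctsk and Reep6. Likeness was measured as the root mean square difference from the mean profile of the members after centring log2(RPKM + 1), and was 0.0581, 0.0583, 0.0659, 0.0670 and 0.0683 for these genes. The members themselves were 0.0859 (Acta2) to 0.261 (Smtn) from their own mean. Mfap4, a microfibril gene that was also on the fibroblast list, had 25.8, 40.0 and 34.5 RPKM in CTX 1, 2 and 3, against 20.6, 21.8 and 32.5 in controls 1, 2 and 3. Dap, which encodes death-associated protein, had 58.3, 87.1 and 77.4 RPKM in CTX 1, 2 and 3, against 45.9, 51.3 and 64.6 in controls 1, 2 and 3.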

How the data were processed

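Per the labels' protocols, RNA was extracted from frozen ovary with Trizol, and Illumina TruSeq libraries were made from 1 µg each. Bowtie 0.12.2 and mm10 are named in the submitters' processing notes, and the sources used here do not give the read counter, annotation or strand use. The deposited values are RPKM rounded to 2 decimals, a unit read from the values, since low values times exonic length (GENCODE M21, GRCm38, the assembly of mm10) were whole numbers of reads, to within 0.2, for 97.7 to 98.1% of values. That step gave the depth. By approximate reads the closest libraries were CTX 2 and 3 (median chi-square per gene 1.34, against 0.455 from sampling alone), and all 6 were kept. That comparison is with read sampling only, so it cannot decide whether CTX 2 and 3 come from separate animals.

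RPKM were tested as log2(RPKM + 1), which understates changes of low genes, for genes that reached 1 RPKM in 3 or more of the 6 libraries. Limma 3.58.1 (R 4.3.3) fitted CTX against control with a variance trend, two-sided, with Benjamini-Hochberg adjustment over all genes tested. The fit was tested on simulated data in which no gene varied more within groups than the lower quartile of tested genes. That test does not show the power of the fit in these libraries. Alternatives were other pseudocounts, filters and scalings, no trend, array weights, a replicate block, the luteal covariate and each library left out. Named outside the members were the 2 most abundant genes of each role list, the 5 with the smallest unadjusted p over these lists, and the 5 nearest profiles, besides markers given as composition values. Myocd was named outside these rules, with its values known. The members and lists were chosen with earlier results of these data known, and a few listed genes are not reported here.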

Additional observations from a re-analysis of the deposited data

How the results depend on the processing

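All 10 members kept a positive log2 fold change, CTX minus control, in the 10 alternative settings and with each library left out, and none was called in any of these except with array weights. With array weights 4062 genes were called higher and 2747 lower, all 10 members were called, and the median over the members was 0.88. With the luteal covariate 0 genes were called higher and 2 lower, and the median was 0.42. With each library left out, 0 to 2 genes were called higher and 0 to 3 lower, the calls coming without CTX 1, 0 members were called, and the median ranged from 0.45 (without control 1) to 0.72 (without control 3). Myh11 was at 0.67 without CTX 1, 0.51 without control 3, 0.20 without control 2, 0.19 without CTX 3 and 0.15 without CTX 2. Lmod1 was 0.39 without CTX 1, 0.15 without control 2 and 0.13 without CTX 2. Smtn was 0.23 without CTX 1 and 0.02 without CTX 2, and the cause was not tested. The replicate block called 0 genes and left the median at 0.57, with Cnn1 at 0.86 ± 0.17. Deviations from the group means correlated at 0.401, −0.540 and 0.598 between same-numbered libraries. Between libraries of different number they ran from −0.660 (CTX 1 with control 3) to 0.614 (CTX 1 with control 2). The libraries divided by luteal and granulosa markers in the same way, so these values cannot decide whether the replicate numbers pair libraries. The members rest on at least about 222 reads per library, and the effect of depth on the calls was not tested.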
